A study of Mus musculus with 6 samples.

Results

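The genes described here encode the activin, inhibin, TGF-β and BMP signalling system of the postnatal mouse testis. They were chosen by gene symbol: 40 genes, sorted by role into 14 ligand subunits, 11 receptors and co-receptors, 8 antagonists and 7 SMADs, and every array probe annotated to 1 of them was taken. Probes were found for 38 of the 40, against 19057 named genes on the whole array, and they number 65 of 45281 probes. The annotation used here pairs no probe with Inhbb, the activin βB subunit, or with Smad4, the common partner SMAD, so neither is described.

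Ligands of this family are secreted dimers that bring together type I and type II receptor kinases on the surface of the responding cell. The type I kinase phosphorylates receptor SMADs, SMAD2 and SMAD3 after activin, nodal or TGF-β and SMAD1, SMAD5 and SMAD8/9 after BMPs, and these enter the nucleus with SMAD4. In the testis Sertoli cells make inhibin and activin subunits, activin A promotes Sertoli cell proliferation before and around birth, BMP4 is known to act on spermatogonia, and antagonists such as follistatin and chordin bind ligands before they reach a receptor.

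Total RNA of the testis of FVB mice at postnatal day 4 was hybridised to Illumina bead arrays, from 3 Foxo1 null and 3 wild-type samples. The labels give no other allele, agent or treatment, do not say in which cells Foxo1 was deleted, and do not say whether a sample is 1 animal or a pool, so p-values measure only the spread between these 6 arrays, which may in part be technical. All arrays carry the barcode of 1 slide, so slide and genotype are not confounded; they detected between 44.4% and 47.8% of their probes, and had a median of 43 beads per probe. Foxo1, which encodes a forkhead transcription factor, was measured by probes that differed in opposite directions: ILMN_2656498 changed by -1.81 and ILMN_2509340 by 3.36 on the log2 scale (adjusted p = 0.0273 and 0.00221, limma), with every array on its own group's side, and where each probe lies in the gene was not analysed here. The tissue label was checked against Sertoli cell markers: 10 of the 13 listed were tested, among them Sox9, Dhh, Amh and Fshr, each detected on all 6 arrays, while Gata1 was detected on none and Wt1 and Clu had no named probe.

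Levels are given as normalized log2 intensity (background-corrected, quantile normalized), and changes as null minus wild type on the same scale. A probe counts as detected on an array when its detection p-value, taken against negative control beads, is under 0.05, and it was tested when detected on at least 3 of the 6 arrays. That left 37 member probes of 30 genes. Another 8 members had probes and none that passed. Of these, Nodal, its co-receptor Tdgf1 (Cripto), Bmp2, Bmp8b, Lefty2 and the inhibitory Smad7 were detected on 0 of 6 arrays, whereas the BMP antagonists Nog and Grem1 were detected on 2 and 1 arrays, Nog on 1 of each genotype and Grem1 on 1 wild-type array. Unnormalized signals of these 8 members ran from 95.5 to 147 and mostly could not be told from negative controls, so their levels are not described further.

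None of the 37 tested probes passed the threshold of an adjusted p under 0.05 over all tested probes (0 lower and 0 higher, limma with Benjamini-Hochberg adjustment); across the array 0.136% of the tested probes passed, 0.126% lower and 0.00971% higher in null. At an unadjusted p under 0.05 there were 3 member probes, all higher in null, those of the antagonist Chrd, the receptor Bmpr1b and the ligand Bmp4, which is 8.11% of the members' tested probes against 8.79% of all tested probes in either direction, 4.03% higher and 4.75% lower. The groups did not overlap at 3 member probes (Chrd, and 1 probe each of Tgfbr1 and Smad1), with null higher at each, again 8.11%, against 14.0% over the array in either direction, 6.23% with null higher and 7.73% with null lower. Changes were negative at 15 and positive at 22 of the 37 probes, with a median of 0.13, where all tested probes had a median of 0.01. These shares rest on 3 probes each, and Bmpr1b, 1 of the 3 by p, passed the detection filter only through the null group where it was high, so nothing is read from them. In testis RNA, which mixes all its cells, fewer cells of a type and less RNA per cell cannot be told apart, for these values and for all that follow.

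The precision of 3 arrays per group sets what could be seen. The 95% confidence interval of the change lay within -1 and 1, a doubling or halving, at 32 of the 37 member probes (86.5%, against 90.8% of all tested probes). The 5 that reached past it were those of Bmp4, Tgfb2, Bmpr1b, Chrd and Fst. Within a 1.5-fold change lay 15 of the 37 intervals, or 40.5%, against 48.4% over the array. The smallest change called anywhere on the array was 1.07 in size.

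**Figure D1:**
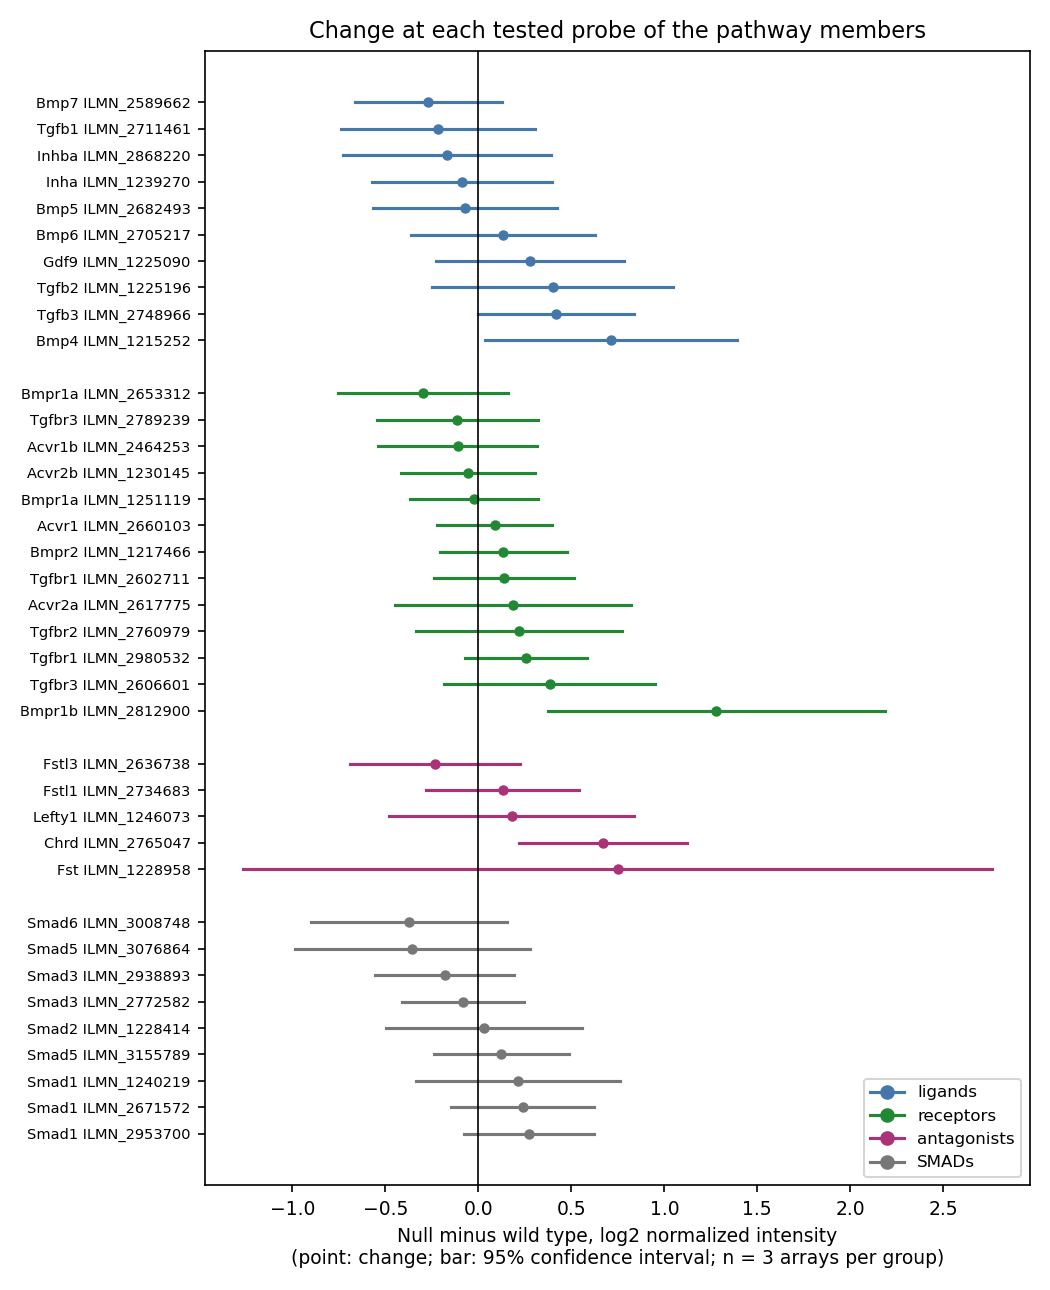
Change at each of the 37 tested member probes, null minus wild type in log2 normalized intensity (points), with the 95% confidence interval (bars; 3 arrays per group), grouped into ligands, receptors, antagonists and SMADs. Most intervals cross 0; those of Chrd, Bmpr1b and Bmp4 lie above it, and that of Fst is the widest, from -1.27 to 2.76.

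Among the ligands, the inhibin α subunit Inha, which pairs with an activin β subunit to form inhibin, read 13.32, 13.12 and 12.89 on wild-type replicates 1, 2 and 3 and 13.08, 13.36 and 12.64 on null replicates 1, 2 and 3. The highest and the lowest array were both null, and the groups overlapped. The change was -0.09 (SE 0.21, 95% interval -0.57 to 0.40, adjusted p = 0.964, limma). Inhba, the βA subunit of activin A, read 10.80, 11.02 and 10.31 in wild type and 10.97, 10.31 and 10.35 in null, a change of -0.17 (SE 0.24, 95% interval -0.73 to 0.39, adjusted p = 0.92, limma). One array of wild type and 2 of null were low, at nearly the same level. For both subunits a doubling or halving lies outside the interval, as do smaller changes beyond its ends. Changes of either sign between those ends are not excluded.

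The TGF-β ligands, which act on growth, matrix and immune cells, had values of both signs, and none of them passed. Tgfb3 read 8.04, 7.76 and 7.72 in wild type and 8.28, 8.52 and 7.98 in null. Its groups overlapped by 1 array on either side, since null replicate 3 lay below wild-type replicate 1, and the change of 0.42 (SE 0.18, 95% interval from just under 0 to 0.84) did not pass (adjusted p = 0.567, limma). Tgfb2 ranged from 7.37 to 8.29 in wild type and from 7.92 to 8.74 in null, with a change of 0.40 (SE 0.28). Tgfb1 had a change of -0.22 (SE 0.23), its highest array being wild-type replicate 1 at 6.74 and its lowest null replicate 3 at 5.79.

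Bmp4, a BMP known for roles in primordial germ cell formation and in mesenchyme, read 7.33, 8.02 and 7.88 in wild type and 7.84, 8.62 and 8.92 in null. Null replicates 2 and 3 lay above all wild-type arrays and null replicate 1 among them. The change was 0.72 or 1.64-fold (SE 0.30, 95% interval 0.04 to 1.39), with an unadjusted p = 0.0407 and an adjusted p = 0.536 (limma). A further Bmp4 probe, ILMN_1235698, was detected on no array. Bmp7, a BMP of epithelia and kidney development, read 7.45, 7.85 and 7.73 in wild type and 7.29, 7.63 and 7.29 in null. Its groups overlapped and the change was -0.27 (SE 0.17, adjusted p = 0.735, limma). Of the remaining ligands, Bmp5 was at -0.07 (SE 0.22), Bmp6 at 0.13 (SE 0.22) and Gdf9, an oocyte growth factor also reported in male germ cells, at 0.28 (SE 0.22). Bmp5 was detected on 3 of 3 wild-type and 2 of 3 null arrays, and Bmp6 on 2 of 3 wild-type and 3 of 3 null arrays. Of the 10 tested ligands 5 had negative and 5 positive values, with a median of 0.03.

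Among the receptors, Bmpr1b is a type I BMP receptor. Its tested probe, ILMN_2812900, read 4.72, 5.59 and 4.85 in wild type and 5.42, 6.58 and 6.98 in null. Null replicates 2 and 3 stood apart, whereas null replicate 1 lay below wild-type replicate 2. The probe was detected on 1 of 3 wild-type and 3 of 3 null arrays, so it passed the detection filter through the null group, and on wild-type replicates 1 and 3 it could not be told from background. The fitted difference of 1.28 (SE 0.40, adjusted p = 0.362, limma) is therefore not a measured fold, and it was 0.48 with the authors' normalized values. Its unnormalized signals were 110, 141 and 129 in wild type and 134, 198 and 260 in null, the last with a standard error over beads of 14.2. A second Bmpr1b probe, ILMN_1216262, was detected on null replicates 2 and 3 alone and was therefore not tested. Its unnormalized signals were 117 to 120 in wild type and 122, 173 and 192 on null replicates 1, 2 and 3, so the same 2 arrays stood out at both probes. The other Bmpr1b probes were detected on 1 and 0 of 6 arrays. The 1 array was wild-type replicate 3, where ILMN_1219486 had an unnormalized signal of 139, against 99.4, 116 and 121 on the null arrays. The probes of this gene thus did not all point the same way.

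None of the other receptors passed the test. The activin receptors gave 0.09 (SE 0.14) for Acvr1, which also serves BMPs, -0.11 (SE 0.19) for the type I receptor Acvr1b, 0.19 (SE 0.28) for the type II receptor Acvr2a and -0.06 (SE 0.16) for its relative Acvr2b. The Acvr2a probe was detected on 3 of 3 wild-type and 2 of 3 null arrays. Acvr2b had a 95% interval from -0.41 to 0.30. The BMP type II receptor Bmpr2 was at 0.13 (SE 0.15, 95% interval -0.21 to 0.47). Bmpr1a, another type I BMP receptor, was measured by 2 tested probes, at -0.30 (SE 0.20) for ILMN_2653312 and at -0.03 (SE 0.15) for ILMN_1251119. At the former the wild-type arrays read 7.13, 7.39 and 7.21 and the null arrays 7.28, 6.57 and 6.99, so that null replicate 1 lay within wild type.

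For the TGF-β type I receptor Tgfbr1, probe ILMN_2980532 read 7.40, 7.58 and 7.33 in wild type and 7.62, 7.70 and 7.76 in null. The null arrays all lay above the wild-type arrays, by 0.26 on average (SE 0.14), with an adjusted p = 0.682 (limma). The other tested Tgfbr1 probe, ILMN_2602711, overlapped between groups, at 0.14 (SE 0.16). The type II receptor Tgfbr2 was at 0.22 (SE 0.24), with null replicate 2 the lowest array and null replicate 1 the highest. Betaglycan, Tgfbr3, the co-receptor for TGF-β2 and inhibin, had probes on opposite sides of 0. ILMN_2606601 read 5.56, 6.17 and 5.73 in wild type and 6.10, 5.84 and 6.67 in null, a change of 0.38 (SE 0.25), and ILMN_2789239 was at -0.11 (SE 0.19). Neither Tgfbr3 probe passed (adjusted p = 0.74 and 0.935, limma). The 13 receptor probes had a median of 0.13.

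Among the antagonists, chordin (Chrd), which binds BMPs, had the smallest p of all members. It read 7.74, 8.18 and 7.80 in wild type and 8.42, 8.41 and 8.91 in null. All 3 null arrays lay above all 3 wild-type arrays, with the nearest pair 0.23 apart. Wild type averaged 7.91 ± 0.24 (SD, n = 3), null averaged 8.58 ± 0.28 (SD, n = 3), and this is a change of 0.67 or 1.59-fold (SE 0.20, 95% interval 0.22 to 1.12). Chrd did not pass the adjustment over all probes (unadjusted p = 0.00874, adjusted p = 0.342, limma).

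Follistatin (Fst), which binds activin almost irreversibly, had an average change of 0.75 (SE 0.88, adjusted p = 0.896, limma) that rests on 1 array. Wild-type replicates read 6.47, 5.94 and 6.40 and null replicates 6.51, 5.15 and 9.40. Null replicate 2 was the lowest of the 6 arrays and null replicate 3 the highest, 3.57 above the mean of the other null arrays. Without null replicate 3 the change was -0.43. The SD among the null arrays was 2.17, and only 3 of 20597 tested probes had a larger one, where the median was 0.20. The unnormalized Fst signal of null replicate 3 was 903 with a standard error over 29 beads of 37.7, which covers bead error within that array only, and that of the other arrays 140 to 187.

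Lefty1, a secreted inhibitor of nodal, read 5.49, 6.10 and 6.25 in wild type and 5.54, 6.43 and 6.40 in null, a change of 0.18 (SE 0.29, adjusted p = 0.933, limma). Replicate 1 was the low array of either genotype. Lefty1 and Lefty2 are close paralogs, and the match of the Lefty1 probe to each was not analysed here; nodal itself was detected on no array. Fstl3, a relative of follistatin that also binds activin, read 7.17, 7.43 and 6.77 in wild type and 7.07, 6.90 and 6.71 in null, at -0.23 (SE 0.20). Fstl1, a secreted glycoprotein of mesenchyme, read 11.61, 11.55 and 11.38 in wild type and 11.65, 11.35 and 11.92 in null, at 0.13 (SE 0.18). In both the groups overlapped.

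**Figure D2:**
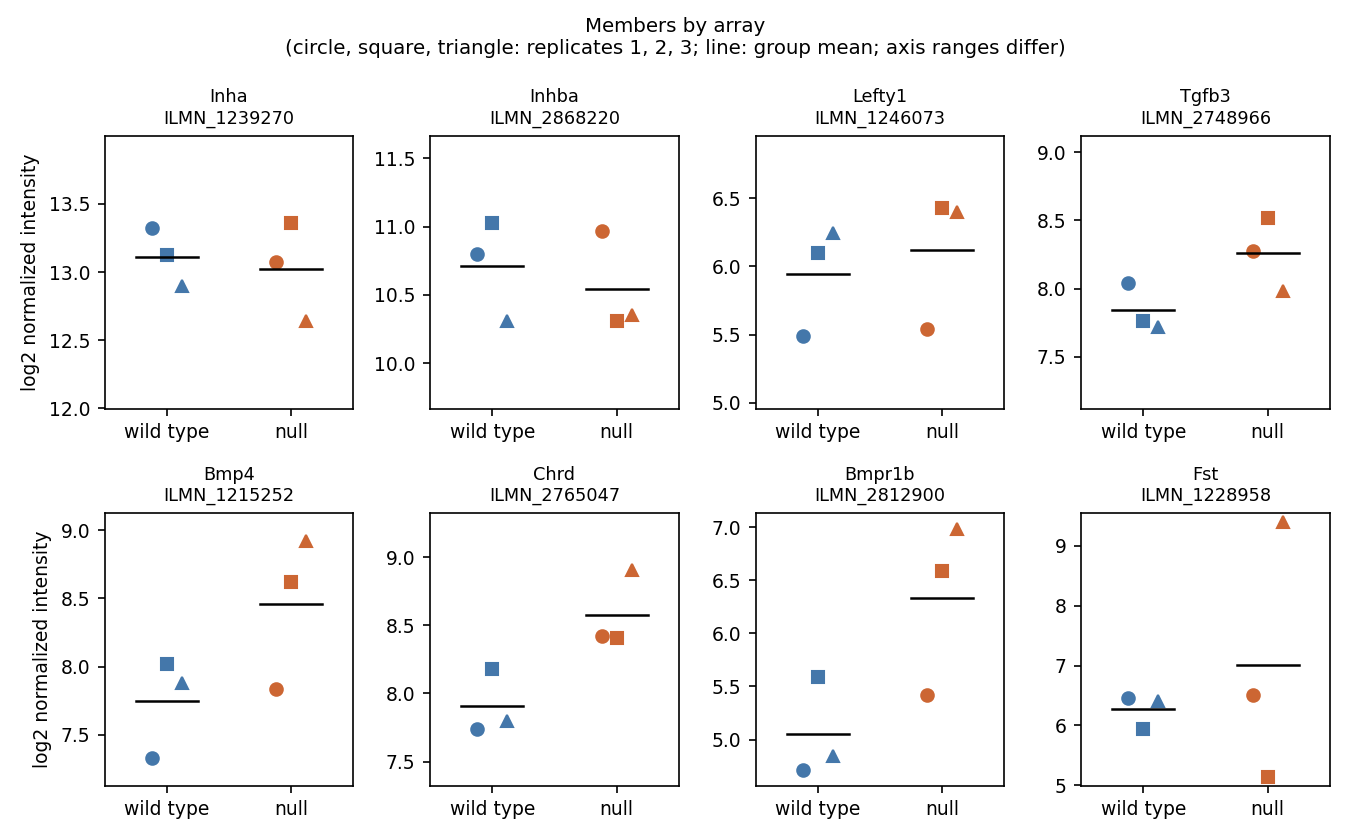
Normalized log2 intensity of 8 members on each array, wild type (blue) and null (orange), with circles, squares and triangles for replicates 1, 2 and 3, a line at the group mean, and axis ranges that differ between panels. The groups are separate at Chrd; at Bmp4 and Bmpr1b null replicates 2 and 3 stand above wild type, and at Fst null replicate 3 alone does.

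The SMADs showed no common direction, with a median of 0.03 over 9 tested probes. Smad1, which carries BMP signals, had positive values at all 3 tested probes, from 0.21 to 0.27. The probe at 0.21, ILMN_1240219, was detected on only 1 of 3 wild-type and 2 of 3 null arrays. It passed the detection filter partly through the null group, so its value is not a measured fold. At ILMN_2953700 wild type read 9.72, 9.73 and 9.46 and null 9.91, 9.78 and 10.03, so the groups did not overlap, but the change of 0.27 (SE 0.15) did not pass (adjusted p = 0.685, limma). At ILMN_2671572 wild type read 8.52, 8.86 and 8.53 and null 8.67, 8.96 and 8.99, with overlap. Smad5, its close relative, had probes of opposite sign, at -0.36 (SE 0.28) for ILMN_3076864 and 0.12 (SE 0.16) for ILMN_3155789. The former read 6.11, 6.31 and 7.16 in wild type and 5.90, 6.42 and 6.19 in null, and wild-type replicate 3 alone stood apart.

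Smad2 and Smad3 carry activin and TGF-β signals. Smad2 was at 0.03 (SE 0.23). Smad3 read 10.79, 10.66 and 10.54 in wild type and 10.68, 10.54 and 10.52 in null at ILMN_2772582. That is a change of -0.08 (SE 0.14, 95% interval -0.41 to 0.25, adjusted p = 0.942, limma). At the other Smad3 probe, ILMN_2938893, wild type read 8.07, 8.22 and 8.51 and null 8.18, 8.07 and 8.0, a change of -0.18 (SE 0.16). The inhibitory Smad6, itself a target of BMP signalling, read 5.91, 5.82 and 5.48 in wild type and 5.85, 5.10 and 5.15 in null. Null replicates 2 and 3 were the lowest arrays, null replicate 1 lay within wild type, and the change was -0.37 (SE 0.23, adjusted p = 0.72, limma). The Smad6 probe was detected on 3 of 3 wild-type and 2 of 3 null arrays, and its change was -0.11 with the authors' normalized values.

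The null arrays on which Bmp4 and Bmpr1b were high also differed from the others in markers of several cell types. Each marker score is the mean log2 difference of a list's tested genes from their wild-type mean. In the duct epithelium list (epididymis and rete), 8 of 10 genes were tested and all 8 had positive values. Its scores on null replicates 1, 2 and 3 were 0.39, 1.85 and 1.37, against -0.37 to 0.31 in wild type, and its summed normalized intensity was 1557 to 5993 in null and 1109 to 1504 in wild type. The defining markers Pax2 and Epcam were detected on no array. In the peritubular (smooth muscle) list 5 of 6 genes were tested and all 5 were positive, with Cnn1 undetected on every array. Its null scores were 0.29, 0.76 and 1.37 against -0.10 to 0.19 in wild type, and its sums 33766 to 50904 against 24958 to 31015. Most of these sums came from 1 Acta2 probe, with a mean of 14.69 in wild type and 15.17 in null.

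In the macrophage list 8 of 9 genes were tested, Cd68 having no named probe. All 8 were positive, with null scores of 0.38, 0.69 and 0.69 against -0.06 to 0.04, and sums of 2049 to 2627 against 1533 to 1630. In the germ cell list 13 of 18 genes were tested, all with negative values, and Mael, Dppa3 and Sycp3 were undetected on every array. Its null scores were -1.0, -1.72 and -1.37 against -0.27 to 0.39, and its sums 1623 to 2542 against 4261 to 6613. Changes at the tested germ cell probes ran from -3.20 for Ret to -0.29 for Zbtb16, so the score averages unlike members. Of the 17 germ cell probes tested, 3 passed the threshold, all lower in null (limma), against 0.126% lower over the array. No tested probe of the other marker lists passed. The scores of the Sertoli list, whose cells are a main source of Inha, overlapped between genotypes, at -0.09 to 0.12 in null. Its sums were 57840 to 75335 in null and 56813 to 68843 in wild type. This score too averages unlike members, since changes at Sertoli probes ran from -0.87 for Rhox5 to 0.49 for a Sox9 probe. Rhox5 was detected on 3 wild-type arrays and 1 null array, so its value is not a measured fold. Every null array lay below every wild-type array at Rhox5 and at a Fshr probe (-0.29), and above at another Fshr probe (0.18). The endothelial list, with 5 of 6 genes tested and a median of 0.05, also had scores that overlapped between genotypes. In the Leydig list 6 of 7 genes were tested, and all 6 had negative values, with a median of -0.24. Its null scores of -0.06, -0.54 and -0.60 overlapped those of wild type, from -0.35 to 0.24.

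The high Fst array, null replicate 3, had the highest peritubular score, and the low one, null replicate 2, the highest duct epithelium score. Each also came next at the other list. The peritubular score of null replicate 2 was 0.76, above all wild-type arrays, and the duct epithelium score of null replicate 3 was 1.37. The part of these cell types in the values of Bmp4, Bmpr1b, Chrd and Fst was not tested.

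**Figure D3:**
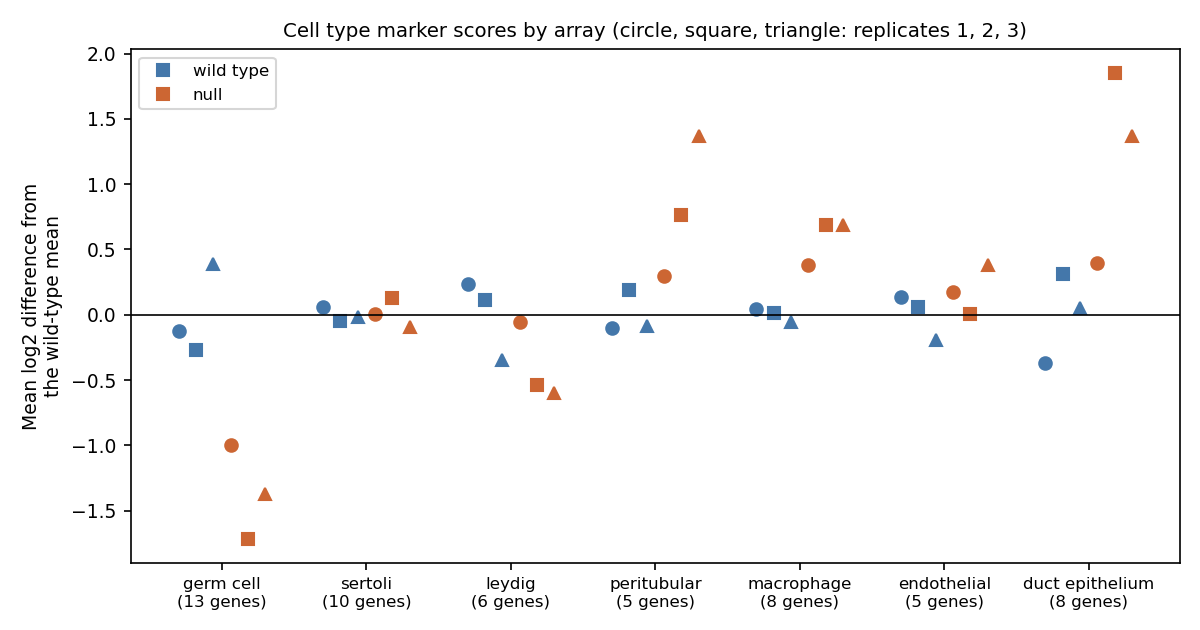
Marker scores of 7 cell types on each array, as the mean log2 difference from the wild-type mean (blue wild type, orange null; circles, squares and triangles for replicates 1, 2 and 3; tested genes per list in brackets). Null replicates 2 and 3 lie highest for peritubular, macrophage and duct epithelium markers and lowest for germ cell markers, while Sertoli markers lie between -0.09 and 0.12 on the null arrays.

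For Chrd, Bmpr1b and Bmp4, the members with an unadjusted p under 0.05, the 250 bases upstream of the first RefSeq start listed (build GRCm38.p6) are printed 5′ to 3′ on the gene's strand. Capitals mark the forkhead core AAACA, or TGTTT on the other strand, a short stretch that lies inside the full FoxO site GTAAACA.

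Chrd upstream of its start, chr16:20732877-20733126, + strand: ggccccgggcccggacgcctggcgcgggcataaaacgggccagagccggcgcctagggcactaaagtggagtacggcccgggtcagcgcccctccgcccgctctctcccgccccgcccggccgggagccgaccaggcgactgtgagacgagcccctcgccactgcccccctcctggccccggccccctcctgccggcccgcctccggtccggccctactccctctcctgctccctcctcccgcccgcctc
Bmpr1b upstream of its start, chr3:141982265-141982514, - strand: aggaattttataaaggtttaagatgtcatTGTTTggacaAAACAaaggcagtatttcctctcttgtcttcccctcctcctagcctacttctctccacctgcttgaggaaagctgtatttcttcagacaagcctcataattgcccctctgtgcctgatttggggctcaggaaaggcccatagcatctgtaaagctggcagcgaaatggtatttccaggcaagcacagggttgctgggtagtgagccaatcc
Bmp4 upstream of its start, chr14:46390670-46390919, - strand: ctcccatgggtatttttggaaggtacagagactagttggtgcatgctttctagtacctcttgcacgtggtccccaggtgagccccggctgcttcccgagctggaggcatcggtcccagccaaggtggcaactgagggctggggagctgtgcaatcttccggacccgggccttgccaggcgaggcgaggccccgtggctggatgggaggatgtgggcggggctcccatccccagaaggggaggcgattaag

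The core was found at 2 places upstream of Bmpr1b, which has 3 listed starts, and at none upstream of Chrd or Bmp4. Of the 33 listed promoters of 28 members, 9 (27.3%) held the core and 0 the full site on either strand. Of all 32851 promoters given there, 46.4% held the core and 3.17% the full site. These matches describe letters within short windows and say nothing of binding.

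The remaining genes of the pathway were read from lists of further ligands, receptors, extracellular and intracellular modulators and SMAD target genes. Of 86 such genes 50 were tested, by 87 probes, and 0 of them passed (limma); at an unadjusted p under 0.05, 7 probes had positive and 2 negative values, or 10.3% against 8.79% of all tested probes. These 9 were unevenly spread: 7 were among the 20 probes of target genes (35.0%), namely 3 of Id2, 2 of Id4 and 1 each of Msx1 and Tgfbi, 2 were extracellular (both Nbl1), and the other lists had 0. The median over these probes was 0.07. Among the other ligands, Amh, the anti-Müllerian hormone of Sertoli cells, was at 0.23 (SE 0.33), with 9.62 on replicate 3 of either genotype. Its receptor Amhr2 was at 0.12 (SE 0.15), 0.13 (SE 0.17) and -0.06 (SE 0.20) at its 3 tested probes. Gdf10, also known as BMP3b, was at 0.89 (SE 0.41, adjusted p = 0.59, limma), and Gdf1, a nodal-like ligand, at 0.04 (SE 0.18).

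Of the other receptors and co-receptors, the values with the smallest p were those of Rgma, a BMP co-receptor (0.30, SE 0.15), Acvrl1, a type I receptor of endothelium (0.33, SE 0.19), and Igsf1, an immunoglobulin superfamily protein (-0.29, SE 0.25, and 0.24, SE 0.22, at its other tested probe). In the extracellular list Nbl1, a secreted BMP antagonist of the DAN family, stood first by p. Its probe ILMN_2777478 read 6.71, 7.13 and 7.24 in wild type and 7.42, 7.83 and 7.62 in null, and its probe ILMN_2886618 10.36, 10.43 and 10.77 against 10.84, 10.91 and 10.90. At both Nbl1 probes the null arrays lay above the wild-type arrays, by 0.60 (SE 0.19) and 0.36 (SE 0.16), without passing (adjusted p = 0.379 and 0.567, limma). It was followed by Itgav, an integrin that can release TGF-β, at -0.33 (SE 0.19) and at -0.10 (SE 0.15) at its other tested probe. Bmp1, a protease that cleaves chordin, was at 0.25 (SE 0.19), while its other 3 tested probes lay between -0.18 and -0.08. Among the intracellular modulators the SMAD corepressor Ski had tested probes of opposite sign, at 0.19 (SE 0.13) and -0.17 (SE 0.21). Tab1, a partner of the TAK1 kinase, was at 0.21 (SE 0.14), with its other 3 tested probes from -0.29 to 0.06. The ubiquitin ligase Smurf1 was at -0.35 (SE 0.25) and -0.25 (SE 0.23), each probe being detected on 3 of 6 arrays. None of the 32 intracellular probes reached an unadjusted p under 0.05.

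The Id genes, encoding inhibitors of basic helix-loop-helix factors and known as direct BMP targets, differed among themselves. Id1 was at 0.11 (SE 0.19, 95% interval -0.33 to 0.55) and Id3 at 0.16 (SE 0.21, 95% interval -0.33 to 0.64), with groups that overlapped. At the Id4 probe ILMN_2678714 wild type read 9.13, 8.76 and 8.76 and null 7.49, 6.98 and 8.20, a change of -1.33 (SE 0.29, unadjusted p = 0.00162, adjusted p = 0.188, limma). Id4, which is expressed in undifferentiated spermatogonia, was at -0.71 (SE 0.22) at its other probe, ILMN_1232416, which was at -0.23 with the authors' normalized values. ILMN_1232416 was detected on 3 of 3 wild-type and 2 of 3 null arrays, so its value is not a measured fold. At both Id4 probes all null arrays lay below all wild-type arrays.

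Id2 had 3 tested probes, at 0.80 (SE 0.31), 1.02 (SE 0.42) and 1.0 (SE 0.31), with all null arrays above all wild-type arrays at each and adjusted p from 0.358 to 0.535 (limma). At ILMN_1236868 wild type read 7.34, 7.02 and 7.09 and null 7.62, 7.92 and 8.93. Null replicate 3 was the highest array at all 3 Id2 probes, and without it the changes were 0.42, 0.45 and 0.62. Msx1, a homeobox target of BMP signalling, read 5.23, 4.52 and 5.36 in wild type and 5.26, 6.28 and 7.62 in null, a change of 1.35 (SE 0.52, adjusted p = 0.489, limma) that was 0.57 with the authors' normalized values. The Msx1 probe was detected on 2 of 3 wild-type arrays. Null replicates 2 and 3 were again the high arrays at Msx1, as at Bmp4 and Bmpr1b, and its null replicate 1 lay within wild type. Over the 20 tested probes of target genes 4 values were negative and 16 positive, with a median of 0.22.

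**Figure D4:**
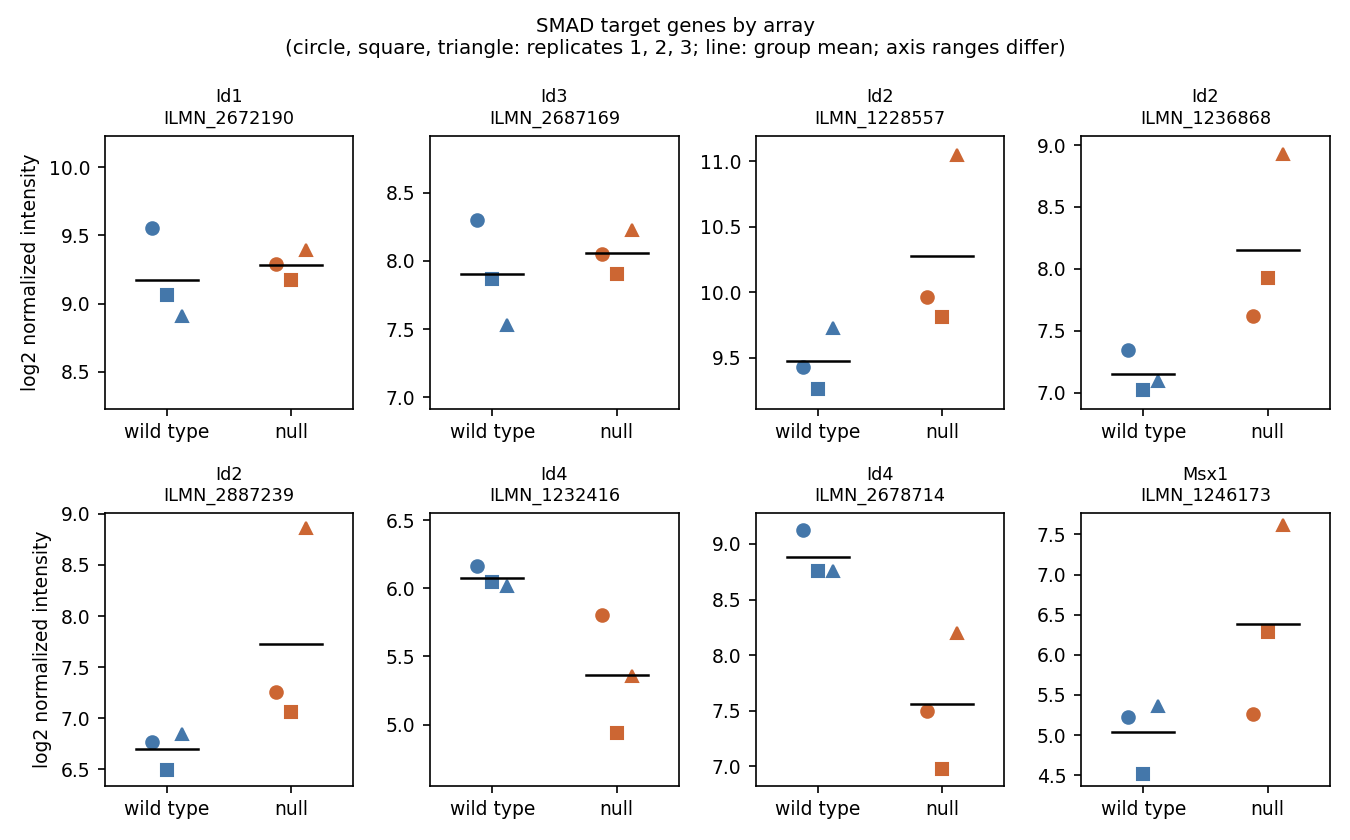
Normalized log2 intensity of Id1, Id3, Id2 (3 probes), Id4 (2 probes) and Msx1 on each array, wild type (blue) and null (orange), with circles, squares and triangles for replicates 1, 2 and 3, lines at the group means and axis ranges that differ between panels. Groups overlap at Id1, Id3 and Msx1, null lies above wild type at Id2, where null replicate 3 is highest, and below it at Id4.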

How the data were processed

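The arrays were Illumina bead arrays of biotinylated cRNA, per the labels' protocols, and the submitters' processing notes name BeadStudio. The deposited scanner table holds per probe a detection p-value and a mean bead intensity with its standard error and bead number, per the file headers, and the authors deposited it as not normalized. The authors' deposited normalized intensities served as an alternative, since each column ranked the probes as its own scanner signal did.

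With limma 3.58.1 in R 4.3.3, neqc (normexp background from the detection p-values, offset 16, quantile normalization, log2) was applied, probes detected on at least 3 of 6 arrays were kept (20597), and null was compared with wild type by lmFit and eBayes without covariates, with Benjamini-Hochberg adjustment over all tested probes and a threshold of 0.05. Probes were named from the platform annotation, updated by Entrez number to GRCm38.p6: 34885 had 1 symbol, 18 several (left unnamed) and 10378 none. The fit was tested on simulated data. The number of arrays limits the precision; the median of 43 beads per probe does not cover variation between samples.

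The members, the lists of other pathway genes and markers, and the tests were chosen with earlier results of these data known. Values by array are given for up to 4 tested probes per role with the smallest p and for Inha, Inhba, Inhbb, Nodal, Tdgf1, Lefty1, Lefty2, Fst, Bmp4, Bmp8b and Smad3 where tested; in each other list, for up to 3 genes with the smallest p and for Amh, Amhr2 and Id1 to Id4 a change. Array values of Id2, Id4, Nbl1 and Msx1 were added after their values were seen. The alternatives tried are given with their effects in the closing section.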

Additional observations from a re-analysis of the deposited data

How the results depend on the processing

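No member probe was called, lower or higher, by limma under any alternative: no background correction, a normexp offset of 50, median scaling, the authors' normalized values, no filter, array weights, a trended and robust prior, a filter of detection on all 6 arrays, the replicate block, an adjusted p under 0.1, or leaving out any 1 array. The count was also 0 with all tested probes of a gene averaged. At an unadjusted p under 0.05 these settings gave 0 to 2 lower and 2 to 5 higher member probes, and the smallest adjusted p of any was 0.085, for Bmpr1b without null replicate 1. The sign was kept under every alternative by 24 of 37 member probes and turned under at least 1 by 13, none of them called; of these only Fst had a size over 0.19. Bmpr1b was at 0.48 with the authors' normalized values and 1.72 without null replicate 1. Of the other pathway genes, 1 was called lower, Id4 with the trended and robust prior (-1.33, adjusted p = 0.0492, limma), whose adjusted p in other settings reached 0.491, and 0 in the other alternatives.

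Over the whole array, the 26 lower and 2 higher calls became 53 and 9 without background correction, 74 and 13 with an offset of 50, 45 and 8 with the authors' values, 1 and 1 without a filter, 17 and 1 with detection on all arrays, 85 and 18 with the trended and robust prior, 83 and 26 with array weights, and 66 and 10 at an adjusted p under 0.1. Median scaling gave 12 lower calls. Leaving out 1 array gave 0 to 49 lower and 1 to 29 higher calls.

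Median scaling shifted the median of all probes to 0.12, with medians of 0.15 for the SMADs and 0.19 for the other pathway genes. Without a filter the medians were -0.01 for all members (-0.0053) and -0.012 for receptors, since undetected probes enter. Array weights gave -0.11 for SMADs and 0.43 for antagonists. Leaving out 1 array gave -0.094 to 0.14 for SMADs and -0.011 to 0.47 for antagonists, the latter lowest without null replicate 3 and highest without null replicate 1.

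The labels number the replicates of both genotypes from 1 to 3. Samples of the same number deviated from their group means with correlations of 0.16, -0.096 and 0.11, and not every sample correlated best with its own number, so the numbers were not taken as pairs. The replicate block gave 51 lower and 17 higher calls over the array and changed no member's call.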
